A study of Homo sapiens with 8 samples.

Results

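The regions described here were the 3293 JunD peaks on chromosomes 4 and 13, taken as every entry of the deposited peak list whose chromosome was 4 (2047 peaks) or 13 (1246 peaks). They made up 5.37% of the 61360 peaks listed. These chromosomes were chosen for their low peak density, so the density, and every other measure from the same ChIP experiment, is given as a description without a test. BEAS-2B, an established human bronchial epithelial line transformed with a virus, was used throughout, and all cells had been exposed to cigarette smoke extract (CSE). For RNA sequencing, cells were transfected for 12 h with a JunD expression plasmid or with the empty vector and then kept in CSE for 24 h, with 3 libraries per group. For ChIP sequencing, cells received 8% CSE for 24 h and there was 1 JunD precipitate beside 1 input. For the RNA libraries, the CSE concentration remains not given in the sources used here. Separate cultures are not stated for the numbered RNA libraries, so each p-value below rests on a spread between libraries that may be technical. Among them JunD replicate 3 stood somewhat apart, with a median level of expressed genes on the other autosomes of 6.61 RPKM against 6.13 and 6.12 in its group.

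JunD is a member of AP-1, a family of transcription factors that bind DNA as pairs, at a short palindrome-like site and, in some pairings, at the related cyclic AMP response element. Such pairs sit both at gene starts and at distant enhancers, and take part in the response of airway cells to stress and smoke. Chromosomes 4 and 13 are known as gene-poor chromosomes with long stretches that hold few genes. In ChIP sequencing, the fragments recovered from a locus scale with the number of copies of that locus in the cells, in the precipitated and the input library alike, so peak counts of a chromosome are read beside its gene content and its expression.

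A few promoters on these chromosomes show what the peaks at gene starts look like in sequence: a promoter with an AP-1 site inside the peak, a promoter with a cyclic AMP response element outside the peak, and promoters of genes that rose with JunD whose window held neither. The stretches below are the 250 bases before the start in the RefSeq promoter table (GRCh38.p14), 5′ to 3′ on the strand of the gene. Capitals mark TGACTCA (the AP-1 site) or TGACGTCA (the response element), searched on both strands.
C4orf46, chr4:158671888-158672137, minus strand: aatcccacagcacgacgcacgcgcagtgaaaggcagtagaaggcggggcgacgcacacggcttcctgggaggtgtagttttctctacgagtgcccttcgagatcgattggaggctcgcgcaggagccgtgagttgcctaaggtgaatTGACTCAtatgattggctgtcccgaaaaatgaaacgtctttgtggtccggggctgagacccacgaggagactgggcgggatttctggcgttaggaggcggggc
AFAP1, chr4:7872309-7872558, minus strand: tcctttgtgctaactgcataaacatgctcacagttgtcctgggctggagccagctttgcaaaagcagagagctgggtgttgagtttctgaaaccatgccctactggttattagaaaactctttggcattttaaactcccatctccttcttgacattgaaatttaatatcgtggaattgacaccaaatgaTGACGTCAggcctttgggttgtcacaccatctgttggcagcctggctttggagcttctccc
CXCL1, chr4:73869143-73869392, plus strand: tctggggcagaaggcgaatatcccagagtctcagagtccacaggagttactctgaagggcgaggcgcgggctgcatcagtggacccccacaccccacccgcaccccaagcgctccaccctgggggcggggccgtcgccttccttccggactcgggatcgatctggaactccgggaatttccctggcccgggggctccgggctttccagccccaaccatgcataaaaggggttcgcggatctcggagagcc
DDX60L, chr4:168480493-168480742, minus strand: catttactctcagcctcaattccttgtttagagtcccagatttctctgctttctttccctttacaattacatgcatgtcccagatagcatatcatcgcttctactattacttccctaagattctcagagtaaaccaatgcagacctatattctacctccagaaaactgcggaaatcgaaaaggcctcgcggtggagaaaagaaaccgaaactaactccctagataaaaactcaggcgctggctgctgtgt
The C4orf46 window lay for 232 of its 250 bases in a peak of fold enrichment 3.11 and pileup 6, and its AP-1 site, at chr4:158671984-158671990, began 103 bases before the start, inside that peak. In AFAP1, which encodes an actin filament-associated protein, the response element lay at chr4:7872362-7872369, outside the overlapping peak of fold enrichment 4.29. The q-values of these peaks were 0.32 for C4orf46 and 0.057 for AFAP1. Neither gene was called changed with JunD in the tests below, at log2 fold changes of 0.0661 and 0.0051. The windows of CXCL1, a chemokine that draws neutrophils, and DDX60L, a helicase-like interferon response gene, held neither motif. They overlapped a peak only by their proximal end, for 56 and 8 of their 250 bases, and whole peaks were not searched. Of the 2569 promoter windows of 300 bases that the table gives for chromosomes 4 and 13, 55 overlapped a peak. Among those 55, 2 held TGACTCA (3.64%) and 2 held TGACGTCA (3.64%), against 5.53% and 2.06% of all windows on these chromosomes. On the other autosomes 41 of 766 windows with a peak held TGACTCA (5.35%), against 4.86% of all 31156 windows, and 16 held TGACGTCA (2.09%), against 1.86%. A match of letters describes the window only.

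Chromosome 4 held 10.8 JunD peaks per Mb (95% Poisson interval 10.3 to 11.2) and chromosome 13 held 12.96 per Mb (12.2 to 13.7), against 22.6 per Mb (22.4 to 22.8) over the other 20 autosomes. These intervals cover counting error only, since there was 1 precipitated library. Every other autosome was denser, from 18.1 per Mb on chromosome 18, the nearest to the chosen pair, to 30.5 per Mb on chromosome 19. The X chromosome, which is left out of the comparisons with autosomes, was sparser still, with 7.56 peaks per Mb at 6.55 gene starts per Mb and a mean pileup of 4.59, against mean pileups of 4.57 and 4.58 on chromosomes 4 and 13. The densities were 0.477 (0.456 to 0.498) and 0.574 (0.543 to 0.607) of the other autosomes. Lengths were taken from the first to the last exon in the expression table, 190.1 Mb and 96.2 Mb, and with the wider RefSeq gene span the chromosome 13 value was 0.494.

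Both chromosomes also had the fewest gene starts per Mb of the 22 autosomes in the expression table. Each of the 29534 genes in that table had reads in at least 1 library, so genes without reads are not counted. Gene density, gene-start classes, gene bodies and the share of genes expressed therefore rest on genes detected in these libraries. Chromosomes 4 and 13 held 5.26 and 5.53 gene starts per Mb, against 10.7 per Mb on the other autosomes and 6.26 per Mb on chromosome 18. By protein-coding genes alone chromosome 18, with 2.71 per Mb, stood between chromosome 13 (2.64) and chromosome 4 (2.92). Counted per 100 gene starts, chromosome 4 held 205 peaks and chromosome 13 held 234, against 212 on the other autosomes, so that on this scale the ratios became 0.967 (0.926 to 1.01) and 1.11 (1.05 to 1.17). Over the other 20 autosomes, however, peaks did not scale in proportion to genes: peaks per 100 gene starts ran from 90.2 on chromosome 19 to 295 on chromosome 5. Across those 20 autosomes, peaks per Mb and gene starts per Mb had a Pearson correlation of 0.856 and a Spearman correlation of 0.725. These points share 1 library, and the base composition of the chromosomes was not measured. The line through them gave 20.4 and 20.5 peaks per Mb at the gene densities of chromosomes 4 and 13, and the measured values lay 9.62 and 7.54 peaks per Mb below it. The residual SD of the other 20 was 1.66 peaks per Mb, and the largest shortfall among them was 3.0, on chromosome 11.

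**Figure D1:**
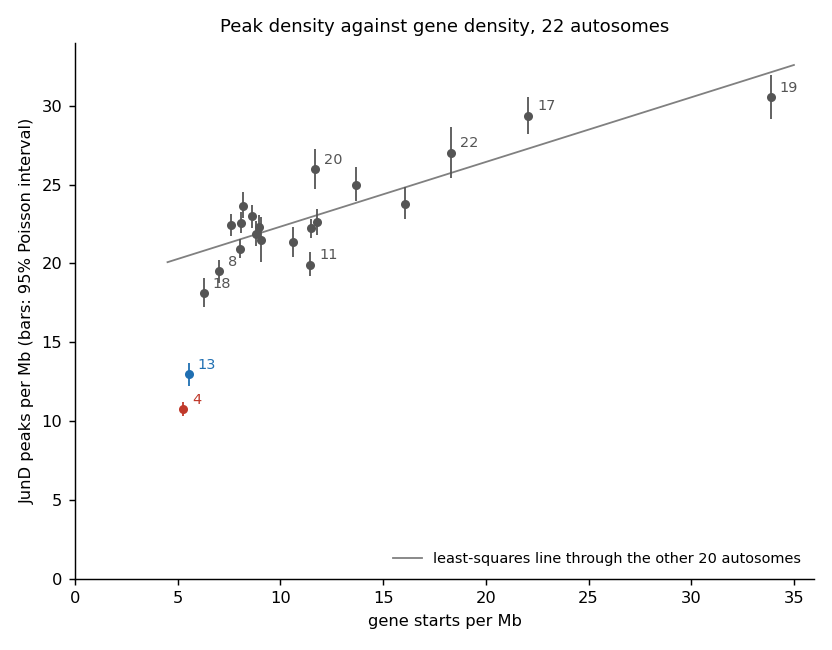
Peaks per Mb (y axis, with 95% Poisson intervals) against gene starts per Mb (x axis) for the 22 autosomes, with the least-squares line through the 20 autosomes other than 4 and 13. Chromosomes 4 (red) and 13 (blue) lie 9.62 and 7.54 peaks per Mb under the line.

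Windows of 1 Mb were then grouped by how many genes start in them. In windows with no gene start, chromosome 4 averaged 6.07 peaks and chromosome 13 averaged 6.26, against 9.60 on the other autosomes. With 1 to 5 starts the means were 8.85, 12.2 and 18.3, in the same order. With 6 to 10 starts they were 12.7, 15.2 and 23.9, and with 11 to 20 starts 17.7, 18.3 and 27.9. Chromosomes 4 and 13 were thus lower than the other autosomes in each of these 4 classes. Summed over classes, chromosome 4 had 0.542 and chromosome 13 had 0.667 of the peaks that its windows would hold at the other autosomes' class means. The same figure for each other autosome lay between 0.885, on chromosome 11, and 1.11, on chromosome 20. The only window of the pair with over 20 starts, on chromosome 13, held 39 peaks against a mean of 31.4 elsewhere.

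Along chromosome 4 the low density was spread over nearly the whole length. Of its 19 segments of about 10 Mb, 18 had under 0.75 of the peaks given by the class means, and the lowest, at 131 to 141 Mb, had 0.308 (61 peaks against 198). The exception was 1 to 11 Mb, at 0.904. Chromosome 13 was more uneven. There 7 of 10 segments lay below 0.75, with the lowest at 49 to 59 Mb (0.434), while the segments at 39 to 49 Mb (0.783), 89 to 99 Mb (0.980) and 109 to 114 Mb (1.12) did not. On the other autosomes 27 of 249 segments (10.8%) lay below 0.75. The lowest of them, on chromosome 1 at 131 to 141 Mb, held 0 peaks and 0 gene starts. Runs of unread bases in the genome build were not left out, neither here nor in the class means. Single windows at or above their class mean numbered 15 of 189 on chromosome 4 (7.94%) and 12 of 95 on chromosome 13 (12.6%), against 48.1% of the 2486 windows elsewhere.

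**Figure D2:**
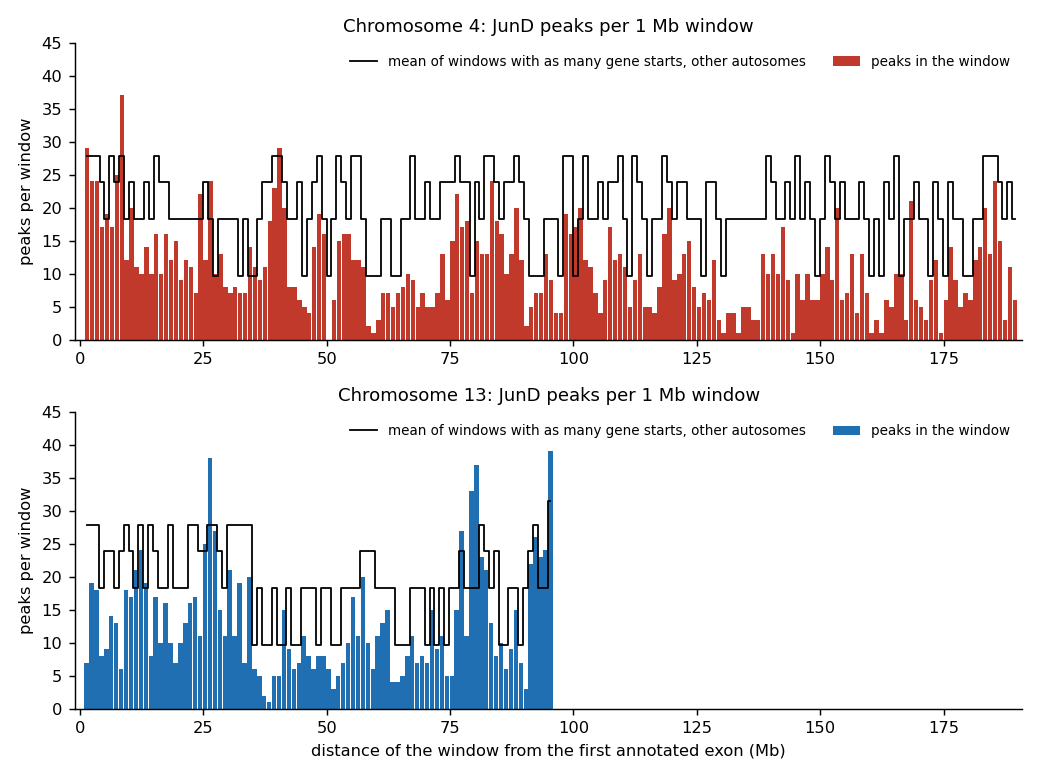
Peaks in each 1 Mb window (bars) along chromosome 4 (upper panel) and chromosome 13 (lower panel), by distance from the first annotated exon in Mb, with the mean of the other autosomes' windows in the same gene-start class (black line). Bars stay under the line in most windows of both chromosomes, and reach it in 15 of 189 and 12 of 95 windows.

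The densest windows were gene-rich ends and a few single loci. On chromosome 4 the window at 8 to 9 Mb held 37 peaks, followed by 1 to 2 Mb and 40 to 41 Mb with 29 each. The window at 1 to 2 Mb holds SLBP, which binds the stem-loop of histone mRNAs, FGFRL1, an FGF receptor without a kinase domain, the spindle protein TACC3 and the histone methyltransferase gene WHSC1, at mean levels of 54.0, 29.8, 26.4 and 17.1 RPKM. The window at 8 to 9 Mb was less expressed, with the carboxypeptidase CPZ at 5.72 RPKM and GPR78, which shares 24.1% of its exon length with CPZ, at 2.30. On chromosome 13 the window at 113 to 114 Mb held 39 peaks and the genes TFDP1 (28.0 RPKM), a partner of E2F factors, CUL4A (25 RPKM), a ubiquitin ligase scaffold, LAMP1 (24.0 RPKM), a lysosomal membrane protein, and GAS6 (6.65 RPKM), a ligand of TAM receptors. The window at 44 to 45 Mb held 38 peaks and TSC22D1, a transcriptional regulator, at 15.8 RPKM. That at 98 to 99 Mb held 37 peaks with only 4 gene starts, among them STK24 (6.21 RPKM), which shares 63.5% of its exon length with FARP1 (1.91 RPKM).

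Stretches without any peak were long, though runs of unread bases in the genome build were not left out. A gap can thus include sequence to which no read could be placed. Gaps of over 500 kb between neighbouring peaks numbered 32 on chromosome 4 and 20 on chromosome 13, or 16.8 and 20.8 per 100 Mb, against 2.63 per 100 Mb (66 gaps) on the other autosomes. The longest on chromosome 4 ran from 49816314 to 51712268, over 1896 kb with no gene start in the expression table. It ended at a peak of pileup 38. The next, from 90152533 to 91345929, held the thymosin pseudogene TMSB4XP8. The longest on chromosome 13, from 55496939 to 56763993, held no gene start. The median distance between neighbouring peaks was 50.5 kb on chromosome 4 and 44.5 kb on chromosome 13, against 26.2 kb elsewhere.

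The shortfall grew with peak height. The pileup, the coverage at the summit in the authors' list, had a median of 4 on both chromosomes and of 5 on every other autosome. Peaks of pileup 4 or less made up 53.9% (Clopper-Pearson 95% interval 51.7 to 56.1) on chromosome 4 and 50.2% (47.3 to 53.0) on chromosome 13, against 41.7% (41.3 to 42.1) elsewhere and 47.3% on chromosome 18, the highest of the others. Relative to the other autosomes, the density of both chromosomes together was 0.723 (0.651 to 0.800) for peaks of pileup 3, 0.622 for pileup 4, 0.515 for pileup 5, 0.337 for pileup 6, 0.217 for pileup 7 and 0.132 (0.0891 to 0.189) for pileup 8 and over. The last class held 20 peaks on chromosome 4 and 10 on chromosome 13. Peaks that pass the authors' q-value at 0.05 were few, 36 on chromosome 4 (1.76%) and 25 on chromosome 13 (2.01%), against 2.63% of peaks elsewhere, and at that threshold the density ratios were 0.319 and 0.439.

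**Figure D3:**
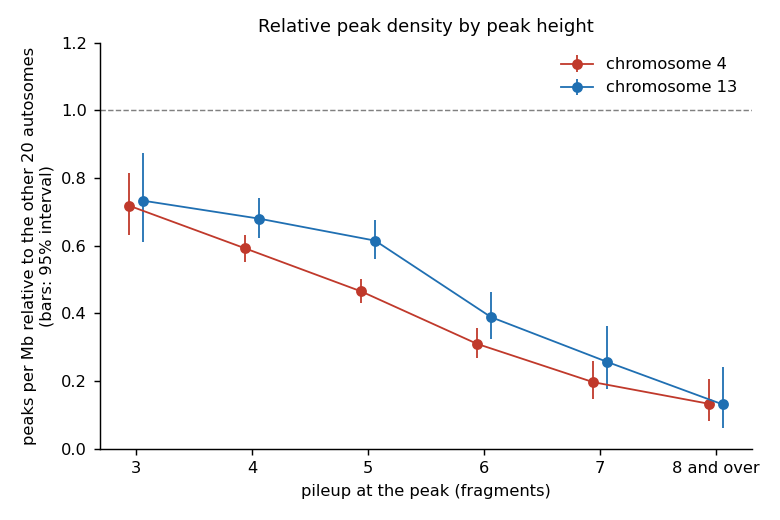
Peaks per Mb on chromosome 4 (red) and 13 (blue) relative to the other 20 autosomes (y axis), for peaks of each pileup (x axis), with 95% intervals of the ratio from counting. The ratio falls from 0.718 and 0.733 at pileup 3 to 0.133 and 0.131 at pileup 8 and over.

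Fold enrichment did not follow the pileup. Its mean was 3.27 on chromosome 4 and 3.29 on chromosome 13, against 3.23 elsewhere, and the median was 3.12 on each of them and over the other autosomes. If the listed fold is (pileup + 1) over (background + 1), the background behind each peak can be recovered. The commonest folds at pileups 3, 4 and 5 all gave a background of 0.602, and none of 59994 autosomal peaks lay below it (tolerance 0.002). The share of peaks at this lowest background was 42.3% on chromosome 4 and 38.8% on chromosome 13, against 15.2% elsewhere, with 24.8% on chromosome 18 as the highest of the other autosomes. Both chromosomes thus had lower pileups and more peaks at the lowest background. Copy number was not measured, and its part in the density, the pileup and the background was not tested.

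Between genes lay 53.3% of all peaks on chromosome 4 and 55.1% on chromosome 13. Of the 6 peaks of highest fold on each chromosome, those in ABCG2, ARFIP1, LRCH1 and ZDHHC20 lay inside a gene. The rest lay between genes. The peak of highest fold on chromosome 4 was chr4:51717826-51718089 (fold 6.16, pileup 9), 125 kb from the start of DCUN1D4, a gene of cullin neddylation. This peak lay just beyond the end of the longest gap, at 51712268. It was followed by 3 peaks of fold 5.62. Of these, chr4:88100136-88100589 lay inside ABCG2, a drug efflux pump, and the others lay between genes, nearest to INTU, a cilia gene, and to NEIL3, a DNA glycosylase. On chromosome 13 the highest was chr13:80093853-80094234 (fold 5.62, pileup 8), between genes, 247 kb from SPRY2, an inhibitor of growth factor signalling. Next came a peak 26.1 kb from RP11-54H7.4 (fold 5.61), a peak inside LRCH1 (fold 5.59) and a peak 4.67 kb from the start of TFDP1 (fold 5.28). By pileup instead of fold, the highest were 3 peaks on chromosome 4 beside the long gap and near the end of the long arm, of pileup 48, 38 and 28. Their folds were 2.34, 2.04 and 4.0, and the backgrounds of the last pair were 18.1 and 6.24.

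By place, 2.59% of the peaks on chromosome 4 (53 peaks, 1.95 to 3.37) and 2.17% on chromosome 13 (27 peaks, 1.43 to 3.14) had their midpoint within 1 kb of a gene start, against 2.82% (2.68 to 2.96) elsewhere. A further 44.1% and 42.8% lay inside a gene, against 48.2%, and 53.3% and 55.1% lay between genes, against 48.9%. Gene bodies cover 35.2% and 34.2% of these chromosomes and 43.5% of the others. The density was low in both settings. Inside gene bodies it was 14.0 and 16.8 peaks per Mb on chromosomes 4 and 13 against 26.0 elsewhere, and outside them 8.99 and 10.98 against 19.9. Seen from the genes, a peak midpoint lay within 1 kb of 92 of 1532 starts (6.01%, 4.87 to 7.31), against 1766 of 26787 elsewhere (6.59%, 6.30 to 6.90). For genes at 1 RPKM or more on average the shares were 6.80% and 6.73%.

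The genes of both chromosomes were also expressed at lower levels, in RNA libraries that played no part in choosing the chromosomes. RPKM is the number of reads scaled to exon length and to all assigned reads of a library, and a gene counted as expressed at a mean of at least 1 RPKM over the 6 libraries. The median RPKM of the 393 expressed genes on chromosome 4 was 4.67, 4.53 and 4.60 in the JunD libraries and 4.02, 4.27 and 4.09 in the empty-vector libraries. For the 210 expressed genes on chromosome 13 it was 4.61, 4.59 and 4.70, against 4.05, 4.19 and 4.15 without extra JunD. In each of the 6 libraries both chromosomes lay below all other 20 autosomes. Relative to the pooled other autosomes the medians were 0.734 ± 0.028 and 0.737 ± 0.023 (SD, n = 6 libraries). In bulk RNA, a lower level in every cell and fewer expressing cells cannot be told apart. Chromosome 18, the next in peak density, was also the next in level, with a mean over libraries of 4.81 against 4.36 on chromosome 4 and 4.38 on chromosome 13.

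**Figure D4:**
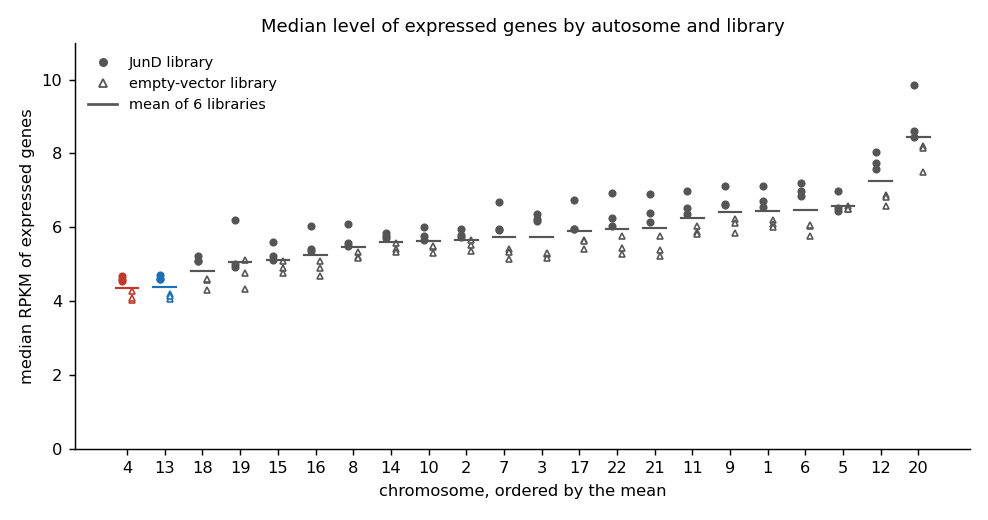
Median RPKM of expressed genes (y axis) for each autosome (x axis, ordered by the mean), with 3 JunD libraries (filled circles), 3 empty-vector libraries (open triangles) and the mean of 6 (bar). Chromosomes 4 (red) and 13 (blue) are the lowest, at means of 4.36 and 4.38, and chromosome 20 is the highest, at 8.46.

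A smaller share of their genes in the table was expressed, 39.3% and 39.5%, against 45.9% over the other autosomes. This was not particular to sparse chromosomes. The share was 39.2% on chromosome 18 and 39.3% on chromosome 21, which held 21.5 peaks per Mb. Among genes that RefSeq lists as protein-coding the order changed: medians were 5.05 RPKM on chromosome 4 and 4.68 on chromosome 13, with chromosome 18 between them at 4.83, against 6.72 elsewhere. Of protein-coding genes, 59.3% were expressed on chromosome 4 and 65.7% on chromosome 13, against 64.9%. In windows with 6 to 10 gene starts the median RPKM of expressed genes was 4.01 and 4.20 on the pair, against 5.58 elsewhere. It was 5.18 and 4.43 against 6.12 with 11 to 20 starts, and 3.95 and 4.38 against 4.54 with 1 to 5 starts. Over the 22 autosomes, mean pileup (of peaks below 20) and median RPKM had a Pearson correlation of 0.784 and a Spearman correlation of 0.632, and over the 20 others 0.706 and 0.511. Peaks per Mb and median RPKM had 0.390 and 0.234 over all 22, and 0.0202 and -0.0181 over the 20 others. The points of each measure share libraries.

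Among the 27 segments of the pair with at least 5 expressed genes, the peak ratio and the median RPKM had a Spearman correlation of 0.202. Expressed genes of the 25 segments below 0.75 had a median of 4.26 ± 0.27 RPKM (SD, n = 6 libraries), and those of the 4 segments at or above it 4.80 ± 0.17. The ranges over libraries were 3.93 to 4.59 and 4.67 to 5.12, which is the spread of the same genes between libraries, not between genes or segments. Single segments with at least 5 expressed genes overlapped, from 2.59 to 6.38 RPKM below 0.75 and from 4.31 to 5.72 at or above it. The segments were split by their peak counts after the values were seen.

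In all, chromosome 4 gave 1.96, 1.92 and 1.88% of assigned reads in the JunD libraries and 1.82, 1.84 and 1.86% in the empty-vector libraries. Chromosome 13 gave 1.13, 1.13 and 1.09%, against 1.01, 1.02 and 1.05%. On both chromosomes the lowest JunD library was above the highest empty-vector library, and group means differed by 0.081 and 0.086 percentage points. The two-sided exact permutation p was 0.1 for each, the smallest that 3 against 3 libraries allow. With mitochondrial genes left out of the total, the differences were 0.0638 and 0.0782 percentage points. On chromosome 4 the lowest JunD library, at 1.961%, was then barely above the highest empty-vector library, at 1.959%. Assigned reads per library ran from 15967955 to 29617655.

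Epithelial markers were present only in part. Of 7 bronchial epithelial markers 2 reached 1 RPKM, KRT8 (146) and KRT18 (81.6), while EPCAM and CDH1 stood at 0.165 and 0.0505. The summed level of this list was 178 to 195 RPKM in the JunD libraries and 262 to 281 in the empty-vector libraries. The 4 mesenchymal markers summed to 304 to 383 RPKM with JunD and 275 to 311 without. VIM, at 311 RPKM on average, made up nearly all of this, while PDGFRB stood at 4.18 and the collagens COL1A1 and COL3A1 at 0.737 and 0.37. The leukocyte list summed to 158 to 187 RPKM with JunD and 37.0 to 41.4 without, almost wholly through CD68 (107 RPKM on average), a lysosomal protein, while PTPRC, the pan-leukocyte marker, stood at 0.00247. All 4 endothelial markers were below 1 RPKM. The part of these shifts in the changes below was not tested.

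Extra JunD was visible in its own gene, with JUND at 70.3, 63.5 and 103 RPKM in the JunD libraries against 13.2, 10.5 and 10.6 with the empty vector. Tests ran over all 13379 genes averaging 1 RPKM or more, with limma on log2(RPKM + 0.5), calls at a Benjamini-Hochberg adjusted p below 0.05, and fold changes on that scale, which understates the change of low genes. Because that average is over both groups, a gene can pass the filter through the libraries of 1 group alone. CXCL1, HERC6 and DDX60 did so through the JunD libraries, and FHDC1 and ANXA10 through the empty-vector libraries. Over all genes tested 46.2% were called, 31.5% higher and 14.7% lower with JunD. On chromosome 4, 138 of 393 genes were higher and 58 lower (49.9% called), and on chromosome 13, 75 of 210 were higher and 25 lower (47.6% called). Both shares lay within the range of the other autosomes, 41.2% to 50.7%. Libraries of the groups did not overlap for 60.4% of the 603 genes, against 57.4% of all genes tested. Without empty-vector replicate 2, 15 genes of chromosome 13 were lower, and without JunD replicate 3 the pair had 235 genes higher and 98 lower against 213 and 83 with it. Called changes of at least 2-fold were 20 higher (3.32%) and 1 lower (0.166%), against 3.64% and 0.822% of all genes tested. The median log2 fold change was 0.14 on chromosome 4 and 0.10 on chromosome 13, against 0.10 over all genes. Of the calls on both chromosomes 72.0% were higher, against 68.2% of all calls. The share fell to 53.7% after median-of-ratios scaling, which moves the median of all genes from 0.099 to -0.017, and was 78.9% in TPM, against 47.8% and 76.9% over all genes. Small changes are therefore relative to the scaling.

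The largest rises belonged to the interferon response, the set of genes that cells switch on against viruses. Of the 12 listed genes on these chromosomes 10 were tested and 9 were higher, with a median log2 fold change of 1.8 against 0.099 over all genes. Among all genes tested 31.5% were higher. The list was compiled with results of these data known. EPSTI1 on chromosome 13, an interferon-induced gene, read 36.4, 33.8 and 33.9 RPKM with JunD against 1.91, 1.65 and 1.85. Its log2 fold change was 3.93 (SE 0.067, limma adjusted p = 2.26e-07), and the groups were far apart. HERC5 on chromosome 4, the ligase that attaches ISG15 to viral and cellular proteins, read 15.8, 15.2 and 15.4 RPKM against 1.29, 1.28 and 1.26, a log2 fold change of 3.17 (SE 0.053). Its neighbour HERC6 rose by 2.99 and the helicase gene DDX60 by 3.14 on the log2 scale, again with every JunD library above every empty-vector library. HERC6 and DDX60 averaged 0.781 and 0.907 RPKM with the empty vector, so they were tested only because of their JunD libraries. DDX60L rose by 1.79, PHF11, a zinc finger gene, by 1.74, the aminopeptidase LAP3 by 1.46 and the interferon regulatory factor IRF2 by 0.69. RNASEH2B, a subunit of ribonuclease H2, rose by 0.29. The ubiquitin-activating enzyme UBA6 was not called, at 2.60 ± 0.05 RPKM against 2.44 ± 0.09 (SD, n = 3 each). After median of ratios 8 of the 9 rises kept their call, and RNASEH2B, at 0.19, did not.

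PHF11 alone in this list had a peak midpoint closer than 1 kb to its start in the expression table. That peak, chr13:49495541-49495791, stood at fold 2.90, pileup 6 and q = 0.35. For DDX60L the table's outermost start lies elsewhere, and the peak that overlaps the RefSeq window printed above has fold 3.02.

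Genes of mitosis and the cell cycle moved both ways. Of 20 listed genes on these chromosomes 19 were tested, 4 were higher and 7 lower, with a median log2 fold change of -0.15. The shares over all genes tested were 31.5% higher and 14.7% lower. TACC3, which stabilises spindle microtubules, read 19.7, 19.9 and 20.6 RPKM with JunD against 33.1, 31.7 and 33.3, a log2 fold change of -0.69 (SE 0.05, limma adjusted p = 1.21e-04) with no overlap. The spindle protein CKAP2 fell by 0.57, the kinesin CENPE by 0.58, the condensin subunit NCAPG by 0.41, cyclin A2 (CCNA2) by 0.40, the Aurora activator BORA by 0.39 and the formin DIAPH3 by 0.34 on the log2 scale. CENPU (0.46) and SKA3 (0.23), which act at kinetochores, HAUS3 (0.42), of the augmin complex, and the Mediator kinase CDK8 (0.24) rose, though SKA3 and CDK8 were not called after median of ratios (0.10 and 0.12). RB1, the retinoblastoma tumour suppressor, and HMGB2, a chromatin protein, were not called, at 7.44 ± 0.87 against 8.82 ± 0.39 RPKM and at 238 ± 33.8 against 267 ± 18.7 RPKM (SD, n = 3 each).

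**Figure D5:**
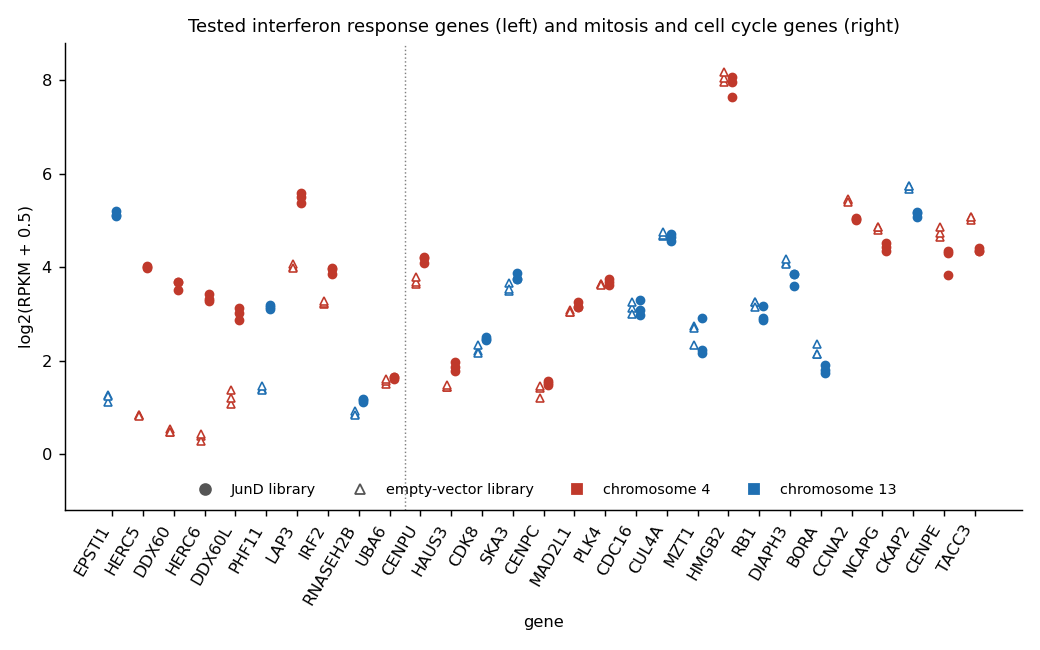
Each library's log2(RPKM + 0.5) for the tested interferon response genes (left of the dotted line) and mitosis and cell cycle genes (right), on chromosome 4 (red) and 13 (blue), each part ordered by log2 fold change. Of the 10 genes on the left 9 were called higher with JunD (circles above triangles), and on the right 4 were called higher and 7 lower.

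Among signalling and transcription factor genes, 12 of 28 on these chromosomes were tested, with 7 higher, 1 lower and a median log2 fold change of 0.46. Over all genes tested 31.5% were higher and 14.7% lower, and the median was 0.099. VEGFC, the lymphatic growth factor, reached 24.6 ± 1.06 RPKM with JunD against 6.86 ± 0.19 (SD, n = 3 each), up 1.77 on the log2 scale (SE 0.056, limma adjusted p = 2.96e-06). FGF2, a growth factor that binds heparan sulfate, read 10.1, 9.23 and 11.2 RPKM against 3.69, 3.66 and 3.56, and FGF5 rose by 1.04 on the log2 scale. FGF2 shares 11.9% of its exon length with NUDT6, which lies on the other strand. SPRY2 rose by 0.66, NFKB1, the gene of an NF-kB subunit, by 0.48 and IRS2, an insulin receptor substrate, by 0.43. FGFRL1 was the only gene of the list called lower, by 0.45, from 34.5 ± 0.99 to 25.1 ± 0.76 RPKM.

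Of the chemokine cluster of chromosome 4, 7 listed genes were in the table and only CXCL1 passed the filter of 1 RPKM. CXCL1 passed it, at a mean of 1.03 RPKM, only through the JunD libraries, since its empty-vector mean was 0.503. It read 1.54, 1.06 and 2.05 RPKM with JunD against 0.479, 0.599 and 0.432, a log2 fold change of 1.01 (SE 0.19, limma adjusted p = 0.00522). A peak of fold 3.61 and pileup 6 (q = 0.18) lay 107 bases from its start, the promoter printed above. Below the filter, CXCL8, a neutrophil attractant, read 1.52, 1.68 and 1.54 RPKM against 0.273, 0.401 and 0.344 and was not tested. The 5 EGF receptor ligand genes in the table were all below the filter, AREG being the highest of them at 0.356 RPKM.

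The redox, stress and metabolic list had 13 of 23 genes tested, with 3 higher and 5 lower, beside 31.5% and 14.7% of all genes tested. CAMK2D, a calcium-dependent kinase, rose by 0.78, PDLIM5, an actin-linked adaptor, by 0.59 and SLC7A1, a cationic amino acid transporter, by 0.31. The efflux pumps ABCG2 and ABCC4 fell by 0.51 and 0.31, the actin-bundling PALLD by 0.44 and the annexins ANXA3 and ANXA10 by 0.25 and 0.58. SLC7A11, the cystine transporter, was not called (14.3 RPKM on average, log2 fold change 0.07, SE 0.077). The collagen genes COL4A1 and COL4A2, a head-to-head pair on chromosome 13, were not called either, at log2 fold changes of -0.07 (SE 0.1) and 0.19 (SE 0.072), nor was HPSE, the heparanase, at -0.07 (SE 0.12), or ADH5, the formaldehyde-clearing alcohol dehydrogenase, at -0.06 (SE 0.057). In TPM COL4A2 was called higher, at 0.26 (limma adjusted p = 0.0302). Of the 13 protocadherin, teneurin and glypican genes of gene-poor stretches, TENM3 alone was tested, and it fell from 4.64 ± 0.31 to 2.49 ± 0.10 RPKM (SD, n = 3 each). None of the 13 listed UDP-glucuronosyl and sulfotransferase genes was matched in the table.

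Outside the lists, the largest rises on chromosome 13 were in ELF1, an ETS transcription factor (1.29 on the log2 scale), DZIP1, a cilia gene (1.1), and FNDC3A (1.0). The largest falls on chromosome 4 were in the pseudogene TMSB4XP8 (-1.05), the formin FHDC1 (-0.89), the atypical cadherin FAT1 (-0.83), which went from 9.78 ± 0.15 to 5.27 ± 0.14 RPKM (SD, n = 3 each), and MXD4, a MAX partner (-0.82). On chromosome 13 they were MIR621, a hairpin gene whose count does not measure the mature miRNA (-0.87), TMCO3 (-0.84), PSPC1P1 (-0.79), RPSAP54 (-0.66) and FARP1-AS1 (-0.64). FARP1-AS1 shares 47.1% of its exons with FARP1, which fell by 0.60. With no strand setting stated, reads of the 2 genes cannot be told apart, and reads of TMSB4XP8, PSPC1P1 and RPSAP54 may be shared with their parent genes.

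Of the 41 tested genes whose start lay within 1 kb of a peak midpoint, 14 were higher and 4 lower. That is 43.9%, near the 46.2% called over all genes. By chromosome, 8 of 26 such genes were called on chromosome 4 (30.8%) and 10 of 15 on chromosome 13 (66.7%). Over all tested genes of these chromosomes the shares were 49.9% and 47.6%. The split rests on few genes and was not tested. Beside PHF11 and CXCL1 the higher ones included TSC22D1 (0.86 on the log2 scale, with a peak of fold 3.90 and pileup 9), ANKRD10 (0.85), the proteasome assembly factor POMP (0.40) and the sulfatase ARSJ (0.49). The lower ones were TENM3, RPSAP54, ETFDH, of fatty acid oxidation (-0.20), and UBL3 (-0.30). These counts use the outermost start of each gene only. At other starts, RefSeq promoter windows of FGFRL1 (-0.45), ABCG2 (-0.51) and PLAC8 (-0.74), all called lower, also overlapped a peak. So did windows of UBE2D3 (0.655), SCOC (0.30) and DDX60L (1.79), all called higher, and of uncalled genes such as AFAP1. ETFDH starts beside C4orf46 and shares its peak. The falls of ETFDH and UBL3 lost their call when any of several single libraries was left out, with limma adjusted p of up to 0.103 and 0.126. Of the genes at the peaks of highest fold, SPRY2 (0.66), NOCT, which encodes nocturnin (0.55), and LRCH1 (0.33, not called after median of ratios at 0.22) rose and ABCG2 and RP11-54H7.4 (-0.38) fell. DCUN1D4 (0.03, SE 0.088), NEIL3 (-0.17, SE 0.06), ARFIP1 (0.08, SE 0.063), TFDP1 (-0.01, SE 0.097) and ZDHHC20 (-0.02, SE 0.072) were not called, though NEIL3 was called lower after median of ratios, at -0.29.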

How the data were processed

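The submitters' processing notes name Trimmomatic 0.36, STAR 2.5.3a, featureCounts, Subread 1.5.1, MACS2 2.1.1, bedtools 2.25.0 and build GRCh38, without saying what each did. Expression was deposited as RPKM for 29534 gene names, with exon coordinates. Per the file headers, each peak of the authors' list has a fold enrichment, which is a ratio, beside its p-value, q-value and pileup (a signal of coverage). Strand setting and annotation release remain not given in the sources used here. Multiplied by exon length, RPKM fell on whole multiples of 1 read for 100% of genes (tolerance 0.01), which gave the reads.

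Gene starts were outermost 5′ ends of 29417 names at a single place. limma 3.58.1 (R 4.3.3) was fitted with a trend and no block over all 13379 genes, and its script was checked on simulated data. Groups came from the titles. Intervals are 95% exact Poisson or Clopper-Pearson and cover counting error only. The members and the 10 gene lists were chosen with earlier results of these data known. Named genes were, per chromosome, the 5 largest called changes each way with no overlap of libraries, up to 4 tested members of each list with the smallest p, called genes with a peak at the start, genes at the 6 peaks of highest fold, and genes of the densest windows and longest gaps. Other list members (such as CXCL8, UBA6, RB1 and SLC7A11) were chosen after their values were seen. No genome sequence was used, so lengths are exon spans and motifs were searched only in RefSeq promoter windows. Alternatives covered thresholds, window sizes, scalings, pseudocounts and left-out libraries.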

Additional observations from a re-analysis of the deposited data

How the results depend on the processing

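The density ratios of chromosomes 4 and 13 kept below 1 under each threshold on peaks, at 0.319 and 0.439 with q below 0.05 and at 0.133 and 0.131 with a pileup of at least 8, and chromosome 4 was at 0.445 with a fold of at least 4. Per 100 gene starts they were 0.967 and 1.11, on a scale that ran from 90.2 to 295 peaks over the other autosomes. The RefSeq gene span, added after seeing the data, gave 0.494 for chromosome 13. The ratios to the class means of windows stayed within their counting intervals with windows of 500 kb and 2 Mb and with expressed genes only. No peak of pileup up to 4 passed q below 0.05 (0.0% on both). Within 5 kb of a start lay 7.77% and 7.30% of peaks, against 9.69% elsewhere, and at a fold of at least 4 the shares within 1 kb were 2.91% (0.95 to 6.65) on chromosome 4 and 0.926% (0.0234 to 5.05) on chromosome 13, against 3.37% elsewhere. Among protein-coding genes the median RPKM of chromosome 13 was 0.689 of the other autosomes. After median of ratios 91 genes of chromosome 4 were higher, and on chromosome 13 48 were higher and 42 lower. With the replicate block, 45 and 14 were called on chromosome 13, and the numbers do not pair the samples (correlations of -0.169, -0.083 and -0.382), no sample correlating best with its own number. Leaving out single libraries gave 15 to 34 lower calls there. Of 47 named genes called, 40 kept direction and call under all 12 alternatives. Calls were gained in TPM by COL4A2, CPZ, NUFIP1, GPALPP1 and STK24 (higher) and after median of ratios by NEIL3 and GAS6 (lower). Without JunD replicate 3, GAS6, NUFIP1 and GPALPP1 were called. Signs changed only for uncalled genes. In TPM the log2 fold changes were 0.0029 for COL4A1, 0.0071 for ADH5, 0.0654 for TFDP1, 0.0493 for ZDHHC20, 0.0313 for RP11-588L15.2 and 0.0017 for CUL4A. After median of ratios they were -0.0695 for DCUN1D4 and -0.0246 for ARFIP1. Leaving out single libraries gave -0.158 to 0.0101 for COL4A1, -0.175 to 0.0244 for HPSE, -0.021 to 0.102 for DCUN1D4, -0.101 to 0.0487 for TFDP1, -0.0558 to 0.0375 for ZDHHC20 and -0.139 to 0.0853 for RP11-588L15.2. Causes were not tested. Lengths without unread bases and motif searches over whole peaks or 100 bases were not run, for want of a genome sequence here. With 1 precipitated library, the peaks have no replicate, and most rest on 4 or 5 fragments at the summit.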

Other observations

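Shorter stretches of other autosomes had peak densities as low as those of chromosomes 4 and 13 for their gene content. The segments of chromosome 8 from 1 to 41 Mb, all 4 of them, had 0.473 to 0.646 of the peaks given by the class means, while the other 10 segments of that chromosome had 0.872 to 1.55. The median RPKM of the 121 expressed genes in the 4 low segments was 5.04 ± 0.21 (SD, n = 6 libraries), and that of the 239 in the others 6.26 ± 0.58. On chromosome 11 the 3 segments from 101 to 131 Mb had 0.468 to 0.635 and the other 10 had 0.644 to 1.15, with a median of 4.44 ± 0.32 RPKM over 134 expressed genes, against 7.17 ± 0.52 over 576 in its other segments. The ranges over libraries were 4.73 to 5.36 against 5.60 to 6.97 on chromosome 8 and 4.10 to 4.86 against 6.47 to 8.01 on chromosome 11. Such a range is the spread of the same genes between libraries, and does not measure the spread between genes or segments. The segments of chromosomes 8 and 11 were picked by their peak counts after the values were seen, and the gap in level was not general. Over all 27 segments below 0.75 on the other autosomes the median was 5.64 ± 0.30 RPKM, against 6.03 ± 0.43 in the 222 at or above it, with overlapping ranges over libraries (5.36 to 5.98 and 5.54 to 6.70). Across the 244 segments of those autosomes with at least 5 expressed genes, the Spearman correlation of the peak ratio with the median RPKM was 0.145. At the other end, chromosome 20 had the highest mean pileup (5.53), the highest ratio to the class means (1.11) and the highest median RPKM of expressed genes (8.46) of the 22 autosomes. Copy number was not measured, and its part in these values was not tested.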
